A study of Mus musculus with 18 samples.

Results

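The genes described here belong to families named for enzymes that add or remove methyl groups on histones and DNA or remove acetyl groups from proteins. They are the rows whose symbol starts with Kdm, Kmt, Hdac, Sirt, Setd, Tet or Dnmt followed by a digit, without Kdm5d. This gave 57 of the 22428 genes measured, namely 17 Kdm, 5 Kmt, 9 Setd, 11 Hdac, 7 Sirt, 3 Tet and 5 Dnmt genes. One of the 5 Dnmt rows, Dnmt3aos, is an antisense transcript of Dnmt3a and not an enzyme. The rule uses names alone, but earlier results of these data were known when it was chosen.

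The RNA came from CD11b+/CD45+/P2ry12+ cells sorted from the medial prefrontal cortex (mPFC) of mice at postnatal day 51. There were 4 libraries from 16p11dup mice given THC (16p11dup-THC), 4 from 16p11dup mice given vehicle (16p11dup-Veh), 4 from wild type littermates given THC (WT-THC) and 6 from wild type littermates given vehicle (WT-Veh). 16p11dup mice carry an extra copy of the mouse segment that matches human 16p11.2, and all mice were on a C57BL6/J background. THC, the main psychoactive compound of cannabis, was injected under the skin once a day at 8 mg/kg from day 30 to day 51, and the vehicle mice received the solvent over the same days. Each library was taken as one replicate. Whether each stands for a single mouse is not given in the sources used here, so p-values measure the spread between these libraries, which may in part be technical.

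Methyl marks on lysines of histone H3 and H4 are written by SET-domain enzymes, among them many but not all Kmt and Setd members. They are erased by demethylases, among them many Kdm members, most of which need iron and 2-oxoglutarate. Acetyl marks are removed by zinc-dependent deacetylases (Hdac) and by NAD-dependent sirtuins (Sirt), some of which act in mitochondria or the cytoplasm and not on chromatin. DNA methyltransferases (Dnmt) methylate cytosine in CpG dinucleotides, and TET enzymes oxidise 5-methylcytosine as a step towards its removal. In microglia such enzymes help to set which inflammatory and homeostatic genes can be transcribed.

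Values are given as CPM, the count of a gene scaled to the size of its library, and as CPM per kb of exons where genes are compared with each other. The total count ranged from 7045444 to 15459286 per library. Microglial marker genes summed to between 18770 and 37370 CPM in every library, against 0.474 to 50.3 CPM for neuronal, 42.0 to 318 CPM for astrocyte, 1.83 to 110.7 CPM for oligodendrocyte lineage, 0.284 to 229 CPM for endothelial, 0 to 183 CPM for border macrophage and 0 to 190 CPM for monocyte and neutrophil markers. Of the 27 listed genes of the duplicated segment, 24 had a count, and 13 of these were higher in 16p11dup-Veh than in WT-Veh, with a median log2 fold change of 0.14 and 1 at an unadjusted p under 0.05. The duplication was not visible in these transcripts, and the groups are named by their labels. None of the 57 genes lies within that segment of chromosome 7. Setd1a, the nearest named here, starts 639 kb beyond its last gene. RNA levels in a sorted population cannot tell fewer cells of a type apart from less RNA per cell.

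A count of at least 1 was found in all 18 libraries for 35 of the 57 genes (61.4%), against 39.5% of the 13962 genes of the table with any count. These were 5 of 5 Kmt, 3 of 3 Tet, 14 of 17 Kdm and 7 of 9 Setd genes, but 3 of 11 Hdac, 2 of 7 Sirt and 1 of 5 Dnmt genes. Dnmt3l, a catalytically inactive partner of Dnmt3a in the germ line, had no count in any library, where 3 counts would have been 0.155 to 0.424 CPM.

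**Figure D1:**
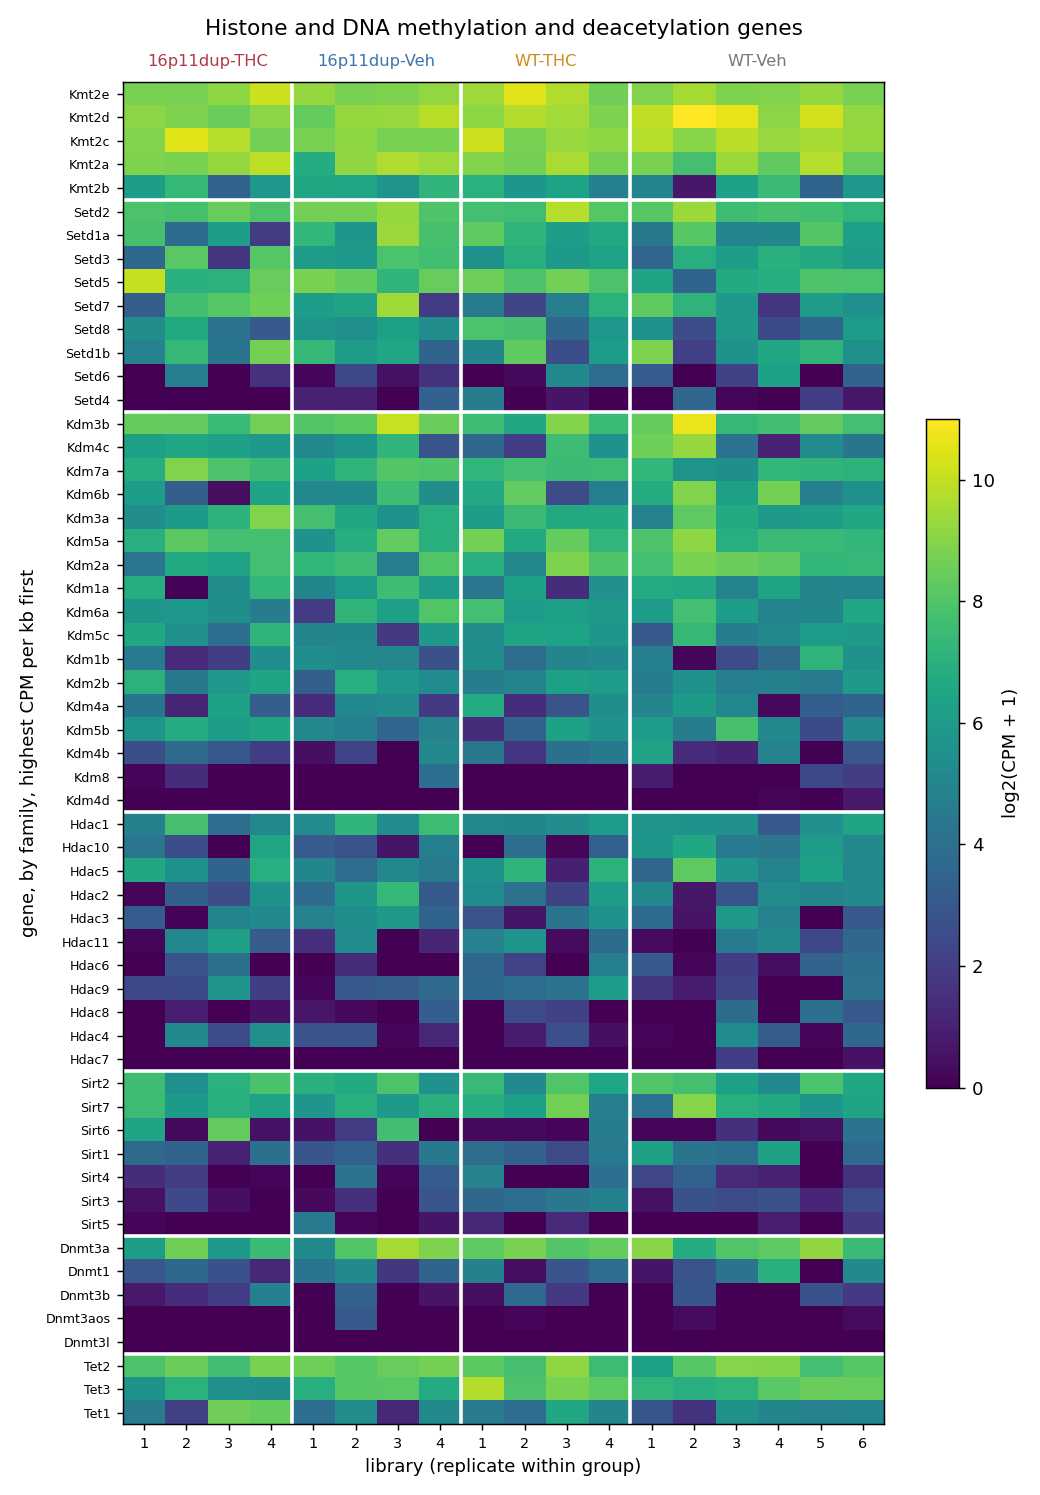
Level of each of the 57 genes (rows, by family and then by mean CPM per kb) in each of the 18 libraries (columns, by group), as log2(CPM + 1) in colour. The Kmt rows are bright in every group, while most Hdac, Sirt and Dnmt rows change between dark and bright from library to library within a group.

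Among the histone H3 lysine 4 methyltransferases, Kmt2d averaged 38.97 ± 22.7 CPM per kb (SD, n = 18), Kmt2c 33.3 ± 13.96 CPM per kb and Kmt2a 32.1 ± 13.8 CPM per kb. Kmt2c and Kmt2d mark enhancers, and Kmt2d was above Kmt2c in 11 of 18 libraries, so their order was not stable. Kmt2a and Kmt2b act at promoters, and Kmt2a was above Kmt2b, which averaged 7.64 ± 5.45 CPM per kb, in 17 of 18 libraries. Kmt2e, which binds methylated histone H3 through its PHD finger, had the highest value of the 57 genes with 59.4 ± 26.2 CPM per kb. Its exons overlap those of Srpk2, and 16 of its 18 counts were not whole numbers, so its level is uncertain.

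Setd2, the main enzyme that trimethylates histone H3 lysine 36, was the highest Setd gene with 31.0 ± 18.2 CPM per kb. Setd1a and Setd1b, catalytic subunits of COMPASS complexes, averaged 22.3 ± 23.6 and 9.91 ± 11.51 CPM per kb, and Setd1a was the higher in 13 of 18 libraries. Setd4 was the lowest of its group with 0.535 ± 1.17 CPM per kb and had a count in 9 libraries. Among the demethylases the highest was Kdm3b, which acts on histone H3 lysine 9, with 27.8 ± 26.7 CPM per kb. Kdm4d was the lowest, with a count in 2 libraries and at most 13 counts. Kdm6b and Kdm6a, the demethylases of histone H3 lysine 27, averaged 16.6 ± 20.7 and 10.4 ± 8.41 CPM per kb, and Kdm6b was the higher in 10 of 18 libraries.

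Hdac1, the deacetylase of the Sin3, NuRD and CoREST complexes, was the highest Hdac gene with 18.7 ± 16.8 CPM per kb. It was above its close paralog Hdac2, at 7.13 ± 8.63 CPM per kb, in 15 of 18 libraries, and above Hdac3, the deacetylase of the NCoR complexes, at 5.46 ± 5.02 CPM per kb, in 14. Hdac7 was the lowest Hdac gene, with a count in 2 libraries. Sirt2, a mainly cytoplasmic sirtuin, averaged 28.3 ± 16.1 CPM per kb and was above the nuclear Sirt1, at 3.47 ± 4.25 CPM per kb, in 17 of 18 libraries. Sirt5, a mitochondrial enzyme, was the lowest sirtuin with a count in 8 libraries. The de novo DNA methyltransferase Dnmt3a averaged 18.4 ± 11.54 CPM per kb and was above Dnmt3b in 18 of 18 libraries and above Dnmt1, which maintains methylation after replication, in 17 of 18. Dnmt1 averaged 2.50 ± 3.99 CPM per kb, with 0 in 1 library.

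**Figure D2:**
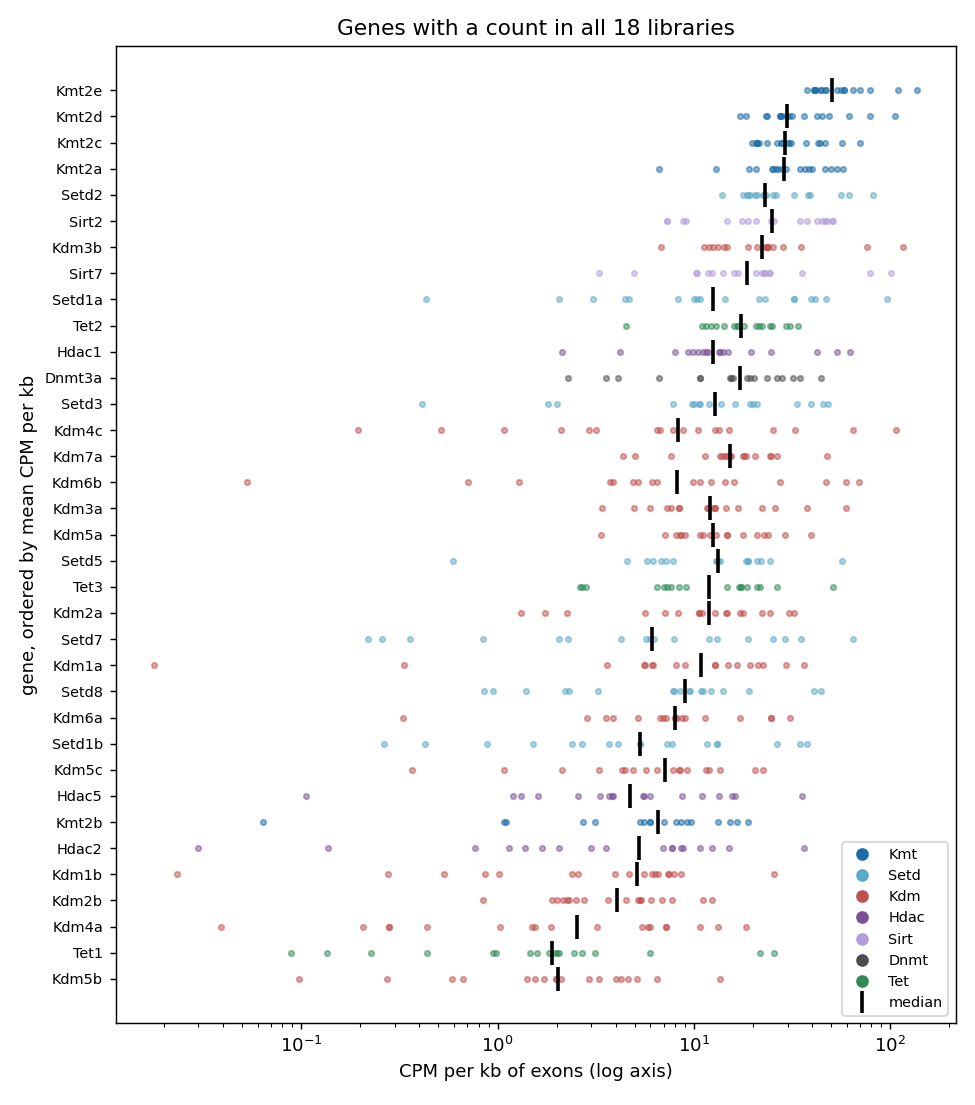
CPM per kb of exons in each of the 18 libraries (points, log axis) for the 35 genes with a count in all of them, ordered by their mean, with the median as a black bar. Kmt2e, Kmt2d and Kmt2c sit above 15 CPM per kb in every library, while Hdac2 has 0.0299 and Kdm6b 0.0529 CPM per kb in the lowest library.

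Much of the spread lay between libraries of one group. An even spread would place 5.56% of a gene's summed CPM in each library, but the median over the 56 genes with a count was 23.1% in the highest library, and 22 genes had over 25% there. Sirt6, a nuclear sirtuin, was the extreme among the genes that reached 100 CPM. It had 84.0, 0.184, 324 and 0.435 CPM in the 16p11dup-THC libraries, 0.463, 2.93, 204 and 0 CPM in 16p11dup-Veh, 0.221, 0.215, 0.133 and 24.5 CPM in WT-THC and at most 17.9 CPM in WT-Veh. The groups overlapped, and 11 of 18 libraries held under 10 counts. Between a mean log2 CPM of 3 and 5 the median SD over libraries, on the log2 scale, was 2.31 for 7 of these genes and 2.34 for 2362 others. Between 5 and 7 it was 1.76 for 17 of these genes and 1.37 for 2146 others. Above 7 it was 0.83 for 13 of these genes and 0.77 for 1140 others. Of the 35 genes counted in every library, 8 had their highest CPM in WT-Veh replicate 2 and 5 in 16p11dup-Veh replicate 3. These libraries also have the lowest scaling factors, 0.769 and 0.735, and the part of that scaling in the highest values was not tested.

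Of the TET genes, Tet3 reached an unadjusted p under 0.05 in limma in 4 of the 6 comparisons, and Tet2 and Tet1 reached it in none. Tet2 averaged 19.0 ± 7.72 CPM per kb, Tet3 14.4 ± 11.7 CPM per kb and Tet1 4.18 ± 7.25 CPM per kb. Tet2 was above Tet3 in 11 of 18 libraries, which were 4 of 4 in 16p11dup-THC, 3 of 4 in 16p11dup-Veh, 1 of 4 in WT-THC and 3 of 6 in WT-Veh. Tet3 lies at chr6:83362373-83459084 on the minus strand of GRCm38 and Tet2 at chr3:133463679-133545139, also on the minus strand. As these are enzymes that act on methylated CpG and their own promoters can be compared, the RefSeq sequences from 250 bases before to 50 bases after each start are shown (GRCm38.p6, minus strand, 5′ to 3′), with CG in capitals.
Tet3: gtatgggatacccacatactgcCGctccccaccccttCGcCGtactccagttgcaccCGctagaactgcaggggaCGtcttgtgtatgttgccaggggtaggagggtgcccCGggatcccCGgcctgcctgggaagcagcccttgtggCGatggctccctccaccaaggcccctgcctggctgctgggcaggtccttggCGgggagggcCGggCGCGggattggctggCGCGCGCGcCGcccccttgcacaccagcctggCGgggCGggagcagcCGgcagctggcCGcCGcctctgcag
Tet2: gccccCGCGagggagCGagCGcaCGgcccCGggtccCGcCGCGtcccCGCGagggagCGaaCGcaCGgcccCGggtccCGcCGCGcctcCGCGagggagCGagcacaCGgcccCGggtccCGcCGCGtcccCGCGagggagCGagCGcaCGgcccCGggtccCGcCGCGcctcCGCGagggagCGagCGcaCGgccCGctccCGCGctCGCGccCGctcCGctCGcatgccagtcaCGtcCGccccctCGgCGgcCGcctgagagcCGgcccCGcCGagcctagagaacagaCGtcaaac
The Tet3 sequence, at chr6:83441629-83441928, starts inside the longer GENCODE gene and holds 22 CG with an observed to expected ratio of 0.58. The Tet2 sequence, at chr3:133544341-133544640, also lies inside its longer GENCODE gene and holds 57 CG with a ratio of 1.17. Over the 46 of the 57 genes with such a sequence in RefSeq the median was 21 CG and a ratio of 0.80, against 20 CG and 0.75 over 10442 genes of the table. The letters GAGGAAG, a match to the purine-rich core bound by ETS factors such as PU.1, were in 17.4% of the 46 and 13.6% of the 10442 promoters on either strand. Neither Tet3 nor Tet2 held them, which says only that these letters are not in this window.

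Tet3 had 47.1, 128, 45.1 and 44.1 CPM in the 16p11dup-THC libraries, 118, 283, 289 and 108 CPM in 16p11dup-Veh, 852, 245, 444 and 310.3 CPM in WT-THC and 152, 122, 141, 291, 363 and 349 CPM in WT-Veh. The 4 16p11dup-THC libraries were below the 4 WT-THC libraries without overlap, and 3 of them were below every other library. 16p11dup-THC replicate 2 was within the range of 16p11dup-Veh and WT-Veh. Tet3 averaged 66.1 ± 41.4 CPM in the 16p11dup-THC libraries, against 463 ± 272 CPM in the WT-THC libraries (SD, n = 4 each), which in limma was a log2 fold change of -2.53 (SE 0.49). This was the smallest p of any of these genes in any comparison, 0.000122 in limma, but after Benjamini-Hochberg adjustment across the 22428 genes (FDR) it was 0.522, above the threshold of 0.10. The exact permutation test gave p = 0.0286, the smallest that 4 against 4 libraries allow. Against WT-Veh the log2 fold change was -1.73 (SE 0.45, limma p = 0.00157, FDR = 0.803, exact permutation p = 0.00952). Against 16p11dup-Veh it was -1.31 (SE 0.49, limma p = 0.0179, FDR = 0.83, exact permutation p = 0.0857). The interaction of THC and 16p11dup was -2.11 (SE 0.66, limma FDR = 0.973). These 4 values share the 16p11dup-THC libraries.

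With each of the 18 libraries left out in turn, the difference from WT-THC stayed between -2.89 and -2.18 on the log2 scale with p under 0.05 every time. The difference from 16p11dup-Veh did not reach an unadjusted p under 0.05 without 16p11dup-Veh replicate 2. With the 5 surrogate variables of the authors in the model, it was -1.15 and the interaction was -1.61. Neither reached an unadjusted p under 0.05 in that model. The differences from WT-THC (-2.35) and from WT-Veh (-1.89) still did. DESeq2 gave Tet3 an FDR of 0.000141 against WT-THC, 0.00800 against WT-Veh, 0.163 against 16p11dup-Veh and 0.0813 for the interaction, whereas edgeR gave 0.223, 0.304, 0.571 and 0.394. Markers of cycling cells were also low in 16p11dup-THC. The 5 listed genes summed to 0.0919 to 0.368 CPM in 16p11dup-THC, with 3 of 5 at 0 in every library, 9.64 to 66.4 CPM in 16p11dup-Veh, 0.737 to 247 CPM in WT-THC and 0.123 to 19.4 CPM in WT-Veh. Their part in the Tet3 values was not tested.

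Tet2 had 239.6, 363, 195 and 423 CPM in 16p11dup-THC, 375, 271, 349.6 and 413 CPM in 16p11dup-Veh, 303, 218, 572 and 185 CPM in WT-THC and 75.7 to 519 CPM in WT-Veh, with a median of 280.2 CPM. The groups overlapped throughout. Tet1 had 24.6, 3.50, 395 and 337 CPM in 16p11dup-THC, 1.38 to 41.4 CPM in 16p11dup-Veh, 14.7 to 92.1 CPM in WT-THC and 2.09 to 48.2 CPM in WT-Veh. Its 2 highest values were both in 16p11dup-THC, but the other libraries of that group were as low as the rest, and its smallest limma p in any comparison was 0.295.

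**Figure D3:**
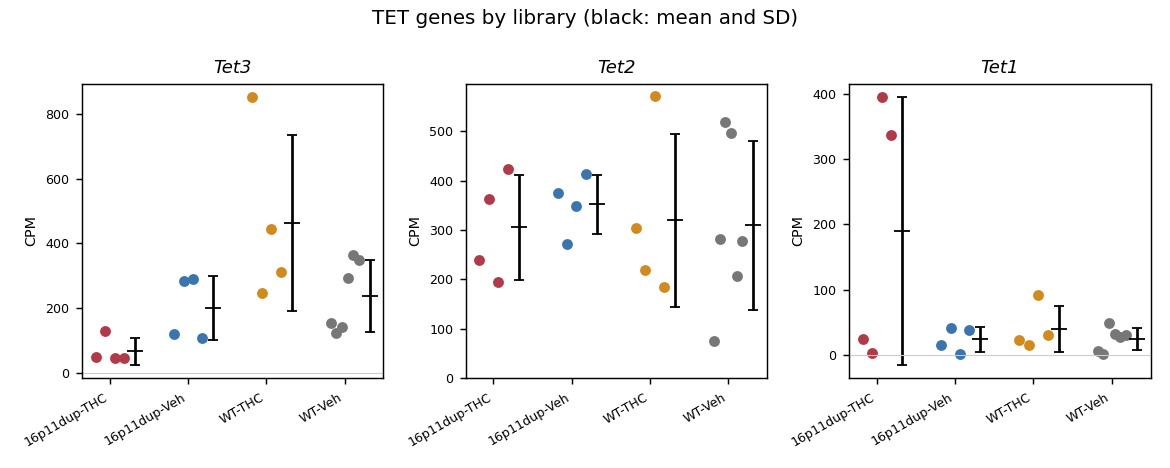
CPM of Tet3, Tet2 and Tet1 in each library (points) by group, with the mean and SD in black. The 16p11dup-THC libraries have 44.1 to 128 CPM of Tet3, below the 245 to 852 CPM of the WT-THC libraries, while the groups overlap for Tet2 and Tet1.

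WT-THC against WT-Veh asks what THC did in wild type mice. Of these genes 3 reached an unadjusted p under 0.05 in limma, and none passed the FDR. Hdac9 and Setd8 were higher, which is 2 of the 56 genes with a count, against a background of 2.35% of all genes. Hdac10 was lower, against a background of 1.73%. At an FDR under 0.10 there were 0 of 56 in limma, with 0.0143% of all genes passing, and 0 by edgeR. DESeq2 called 1 (Kdm8, with no count in WT-THC), against 4.90% of all genes. The median log2 fold change was -0.01 over the 56 genes and -0.11 over all genes. Medians of the marker sums of other cells were higher in WT-THC, as were Hdac9 and Setd8, except for the oligodendrocyte lineage. The 5 cycling-cell genes had 0.737 to 247 CPM in WT-THC (median 72.5) and 0.123 to 19.4 CPM in WT-Veh (median 5.86), with 1 of them at 0 in either group. The 4 endothelial genes had 34.2 to 229 CPM in WT-THC (median 109.3) and 0.284 to 136 CPM in WT-Veh (median 37.8), with 2 at 0 in WT-THC and 1 at 0 in WT-Veh. The 5 border macrophage genes had 0 to 183 CPM in WT-THC (median 32.8) and 0.123 to 43.5 CPM in WT-Veh (median 6.66). Of these, Mrc1 alone reached 182.9 CPM. Medians in WT-THC and WT-Veh were 190.1 and 111.7 CPM for astrocyte, 7.42 and 1.76 CPM for monocyte and neutrophil, and 17.1 and 16.6 CPM for neuronal genes. For oligodendrocyte lineage genes they were 29.0 and 44.2 CPM. Over all libraries the endothelial gene Pecam1 averaged 49.5 CPM, and Kdr, the next, 9.06 CPM. The ranges overlapped for each list, and their part in these values was not tested.

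Hdac10, a polyamine deacetylase of the cytoplasm, had 0, 15.3, 0.133 and 9.77 CPM in WT-THC, against 55.4, 92.5, 22.5, 19.5, 67.1 and 34.8 CPM in WT-Veh. The groups did not overlap (log2 fold change -5.12, SE 1.95, limma p = 0.0192, FDR = 0.744, exact permutation p = 0.00476, the smallest possible). Non-overlap was seen for 2 of the 56 genes, Hdac10 and the mitochondrial sirtuin Sirt3, against 0.466% of all genes. Hdac9, a class IIa deacetylase, had 12.2, 14.6, 17 and 67.5 CPM in WT-THC and 0 to 16.7 CPM in WT-Veh (log2 fold change 4.24, SE 1.64, limma p = 0.0206, FDR = 0.744, exact permutation p = 0.0381). Setd8, the histone H4 lysine 20 methyltransferase also called Kmt5a, had 234, 217, 12.2 and 57.6 CPM in WT-THC, against 49.8, 5.05, 59.3, 4.51, 11.7 and 64.6 CPM in WT-Veh. The groups overlapped, with a log2 fold change of 1.63 (SE 0.76, limma p = 0.0496, FDR = 0.744, exact permutation p = 0.162). Without WT-THC replicate 2 it was 0.94. Without WT-Veh replicate 6, 5 of these genes had an unadjusted p under 0.05.

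16p11dup-Veh against WT-Veh asks what the duplication did without THC. At an unadjusted p under 0.05 in limma, Setd2 was higher and Hdac6 was lower. That is 1 of 56 genes in each direction, against backgrounds of 2.29% higher and 1.35% lower. None of the 56 passed an FDR under 0.10 in limma, nor did any other gene of the table (0%). Both edgeR and DESeq2 also called 0 of the 56, against 0.172% and 3.36% of all genes. No member had groups without overlap, against 0.48% of all genes. The median log2 fold change was 0.04 over the 56 genes and 0.03 over all. The cycling-cell genes had a median of 43.5 CPM in 16p11dup-Veh and 5.86 CPM in WT-Veh. The astrocyte genes had 244 and 111.7 CPM, and the oligodendrocyte lineage genes 12.5 and 44.2 CPM. The neuronal genes had 20.3 and 16.6 CPM, and the endothelial genes 25.6 and 37.8 CPM. For border macrophage genes the medians were 16.4 and 6.66 CPM, and for monocyte and neutrophil genes 14.2 and 1.76 CPM. Of the 5 astrocyte genes, 2 had no count in 16p11dup-Veh, against 0 in WT-Veh. Over all libraries the astrocyte gene Slc1a3 averaged 164.9 CPM, and Aqp4, the next, 10.1 CPM. The part of these lists in the values of this comparison was not tested.

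Setd2 had 421, 411, 606 and 252 CPM in 16p11dup-Veh, against 279.8, 659, 191, 220.1, 203 and 149 CPM in WT-Veh. In 16p11dup-Veh, 3 of 4 libraries were above all WT-Veh libraries but replicate 2 (log2 fold change 0.84, SE 0.36, limma p = 0.0332, FDR = 0.982, exact permutation p = 0.148). Hdac6, a cytoplasmic tubulin deacetylase encoded on the X chromosome, had 0, 1.63, 0 and 0 CPM in 16p11dup-Veh and 0.123 to 15.7 CPM in WT-Veh (log2 fold change -5.04, SE 1.91, limma p = 0.0190, FDR = 0.982, exact permutation p = 0.0476). The count at an unadjusted p under 0.05 was 4 without WT-Veh replicate 6, 1 without 16p11dup-Veh replicate 1 and 1 without 16p11dup-Veh replicate 2.

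16p11dup-THC against WT-Veh takes both factors together. Tet3, Kmt2d and Kdm6b were lower and Kdm7a higher at an unadjusted p under 0.05 in limma. These are 3 of 56 lower, against a background of 2.84%, and 1 of 56 higher, against 2.69%. None of the 56 passed an FDR under 0.10 (0.00716% of all genes did), while edgeR called 1 (Sirt6, higher) and DESeq2 called 5 (Tet3, Kmt2d, Setd4, Dnmt3aos and Sirt6). DESeq2 called 7.51% of all genes in this comparison, and Setd4 and Dnmt3aos had no count in any 16p11dup-THC library. No member had groups without overlap, against 0.616% of all genes. The median log2 fold change was 0.07 over the 56 genes and -0.10 over all.

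Kmt2d had 551, 468, 367 and 544 CPM in 16p11dup-THC, against 973, 2097, 1574, 544, 1227 and 588 CPM in WT-Veh. In WT-Veh, 4 of 6 libraries were above every library of the other 3 groups, which ranged from 340.2 to 894 CPM. The 16p11dup-THC libraries averaged 482 ± 85.7 CPM (SD, n = 4), against 1167 ± 599 CPM for the WT-Veh libraries (SD, n = 6). The log2 fold change was -1.08 (SE 0.36, limma p = 0.00953, FDR = 0.803, exact permutation p = 0.0381). It stayed between -1.35 and -0.91 with each library left out in turn, always with p under 0.05. Kdm7a, a demethylase of histone H3 lysines 9 and 27, had 114, 480.0, 246 and 180.0 CPM in 16p11dup-THC, against 154, 50.4, 43.8, 155, 145 and 137 CPM in WT-Veh. Only its replicate 1 was within the WT-Veh range (log2 fold change 1.17, SE 0.49, limma p = 0.0296, FDR = 0.803, exact permutation p = 0.105). Without 16p11dup-THC replicate 2 the value was 0.59. Kdm6b had 69.1, 8.93, 0.368 and 85.0 CPM in 16p11dup-THC, against 111, 479, 74.9, 412, 26.9 and 45.2 CPM in WT-Veh. The groups overlapped (log2 fold change -3.23, SE 1.47, limma p = 0.0442, FDR = 0.803, exact permutation p = 0.0857), and the value was -0.45 with the 5 surrogate variables of the authors in the model. Leaving out WT-Veh replicate 2, WT-Veh replicate 3 or 16p11dup-THC replicate 3 gave 2 genes at an unadjusted p under 0.05.

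**Figure D4:**
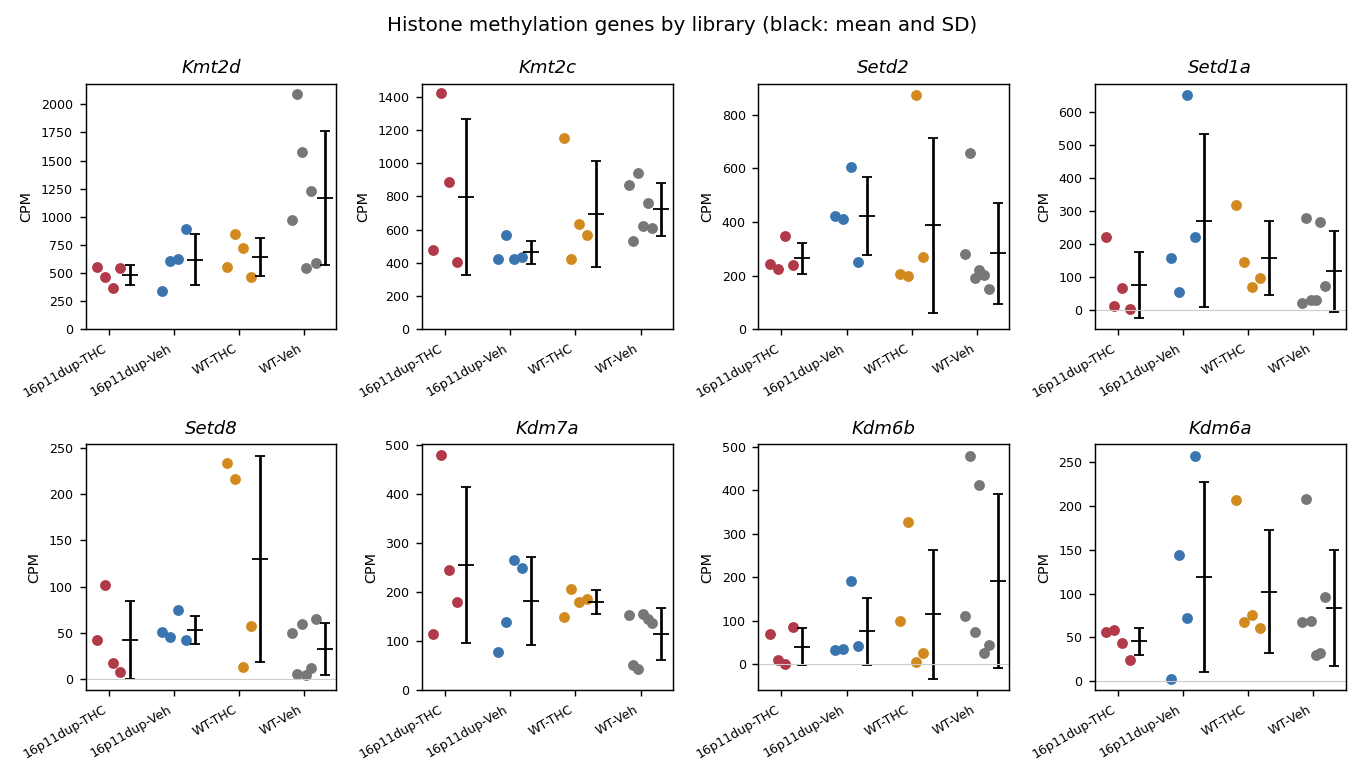
CPM of 8 histone methylation genes in each library (points) by group, with the mean and SD in black. Kmt2d exceeds 894 CPM only in 4 WT-Veh libraries, and for Kdm6a 16p11dup-THC (23.8 to 58.1 CPM) lies below WT-THC (60.5 to 207 CPM).

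16p11dup-THC against WT-THC asks what the duplication did among THC-treated mice. Beside Tet3, Sirt3 was lower at an unadjusted p under 0.05 in limma, so that 2 of 56 were lower and 0 of 56 higher, against backgrounds of 3.35% and 2.45%. None passed an FDR under 0.10 in limma (0.00716% of all genes did), and edgeR called 0. DESeq2 called 6, against 7.01% of all genes. Among these were Setd4 and Dnmt3aos, with no count in 16p11dup-THC, and Kdm8, with no count in WT-THC. Non-overlap was seen for 3 of 56 genes, Tet3, Sirt3 and Kdm6a, all lower, against 2.08% of all genes. The median log2 fold change was -0.26 over the 56 genes and 0.05 over all.

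Sirt3, a mitochondrial deacetylase, had 0.401, 4.42, 0.368 and 0 CPM in 16p11dup-THC, against 12.2, 14.8, 19.4 and 27.4 CPM in WT-THC. The log2 fold change was -4.87 (SE 1.39, limma p = 0.00329, FDR = 0.965, exact permutation p = 0.0286). The WT-THC values were also above those of 16p11dup-Veh (0 to 6.67 CPM) and WT-Veh (0.388 to 5.91 CPM). Its exons overlap those of Psmd13 and Ric8a, and reads were counted without strand, so its level is uncertain. Kdm6a, which is encoded on the X chromosome, had 56.4, 58.1, 43.6 and 23.8 CPM in 16p11dup-THC, against 207, 67.1, 75.1 and 60.5 CPM in WT-THC. The gap between the groups was narrow, and limma gave a log2 fold change of -0.93 (SE 1.08, p = 0.400), while the exact permutation p was 0.0286. Without WT-THC replicate 3, WT-THC replicate 4, 16p11dup-THC replicate 1 or 16p11dup-THC replicate 2, 4 genes had an unadjusted p under 0.05.

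16p11dup-THC against 16p11dup-Veh asks what THC did in 16p11dup mice. At an unadjusted p under 0.05 in limma, Kmt2c was higher and Tet3 was lower, 1 of 56 genes each, against backgrounds of 1.96% and 3.19%. None passed an FDR under 0.10 in limma, in these genes or in the whole table (0%), and edgeR called 0 of the 56. DESeq2 called 2 of the 56 (Setd4 and Dnmt3aos, with no count in 16p11dup-THC), against 6.02% of all genes. Kdm5b, a demethylase of histone H3 lysine 4, was the only gene of the 56 with groups that did not overlap, against 2.11% of all genes. The median log2 fold change was 0.00 over the 56 genes and -0.06 over all.

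Kmt2c had 475, 1425, 887 and 402 CPM in 16p11dup-THC, against 423, 567, 425 and 435 CPM in 16p11dup-Veh. In 16p11dup-THC, 2 libraries were above all of 16p11dup-Veh and 1 was below all (log2 fold change 0.86, SE 0.32, limma p = 0.0186, FDR = 0.83, exact permutation p = 0.257). Without 16p11dup-THC replicate 2 it was 0.52. Kdm5b had 54.7, 107, 70.0 and 84.8 CPM in 16p11dup-THC, against 33.0, 25.7, 11.02 and 28.7 CPM in 16p11dup-Veh, with an exact permutation p of 0.0286 and a log2 fold change of 1.5 in limma (SE 1.16, p = 0.218). The count at an unadjusted p under 0.05 was 5 without WT-THC replicate 1 or 16p11dup-THC replicate 1, and 4 without 16p11dup-Veh replicate 1, 16p11dup-Veh replicate 3 or 16p11dup-THC replicate 2.

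The interaction asks whether THC acted differently in 16p11dup and wild type mice. It is the THC difference in 16p11dup minus that in wild type on the log2 scale. Tet3, Setd2 and Setd1a had negative and Kmt2c had positive values at an unadjusted p under 0.05 in limma, which is 3 of 56 and 1 of 56, against backgrounds of 2.85% and 1.73%. None of the 56 and no other gene passed an FDR under 0.10 in limma (0%), and edgeR called 0 of the 56. DESeq2 called 4 of the 56 (Tet3, Setd4, Kdm8 and Dnmt3aos), against 5.2% of all genes. The median was -0.11 over the 56 genes and -0.02 over all.

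Setd1a had 220.3, 13.99, 67.7 and 2.93 CPM in 16p11dup-THC and 157, 56.1, 652 and 221 CPM in 16p11dup-Veh, against 319, 145, 70.8 and 98.1 CPM in WT-THC and 20.8, 279.7, 30.1, 31.8, 268 and 72.5 CPM in WT-Veh. The 4 groups overlapped, and the interaction was -3.58 (SE 1.62, limma FDR = 0.973). For Setd2, which had 244, 224, 348 and 240.3 CPM in 16p11dup-THC and 207, 199, 875 and 270.3 CPM in WT-THC, it was -1.23 (SE 0.55, limma FDR = 0.973). It was -0.82 without WT-THC replicate 3. For Kmt2c it was 0.95 (SE 0.43, limma FDR = 0.973), with 1151, 422, 633 and 565 CPM in WT-THC and 535 to 939 CPM in WT-Veh. The count at an unadjusted p under 0.05 was 1 without WT-Veh replicate 3 or 4, and 2 without WT-Veh replicate 1 or 6, WT-THC replicate 1 or 2, 16p11dup-Veh replicate 3 or 4, or 16p11dup-THC replicate 4.

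**Figure D5:**
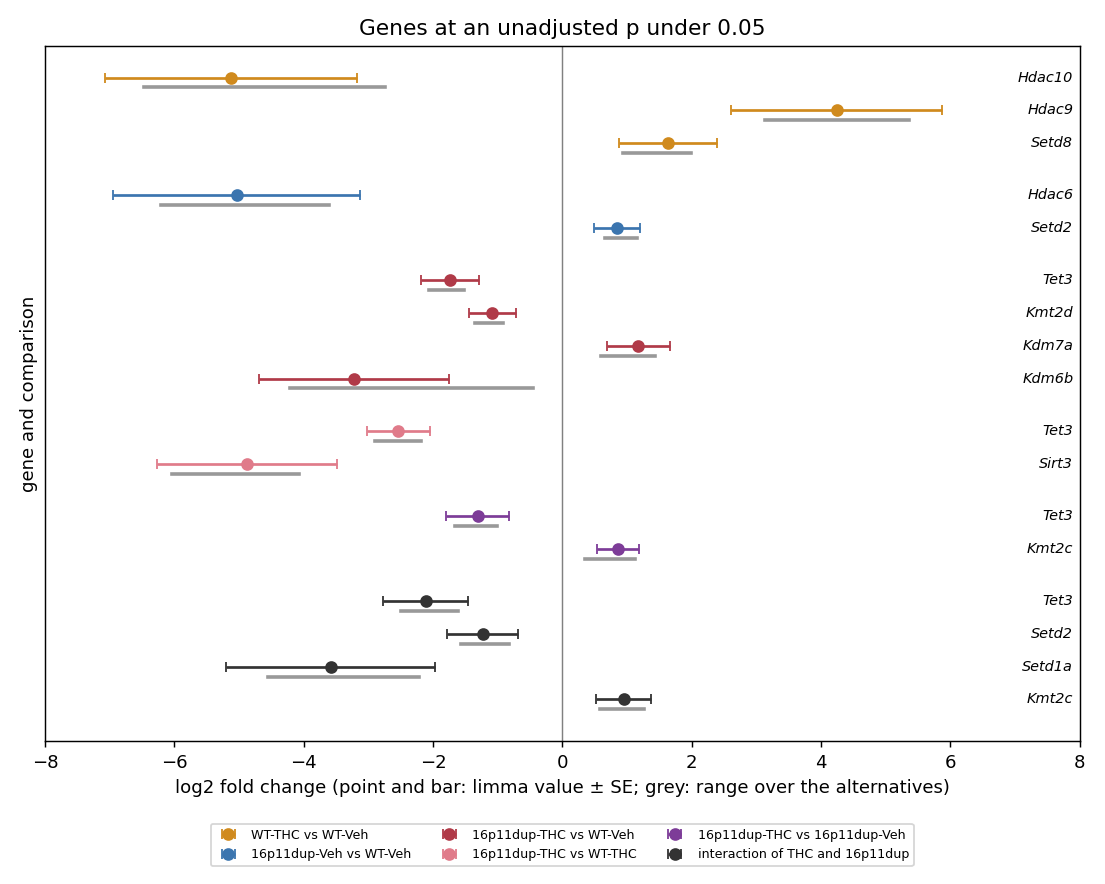
Log2 fold changes (points, with SE as bars) of the 17 gene and comparison pairs at an unadjusted p under 0.05 in limma, coloured by comparison, with the range over the alternative settings in grey. No grey range crosses 0, and those of Tet3 lie between -2.89 and -1.01.

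The deacetylases and DNA methyltransferases best known as chromatin regulators did not pass in any comparison. For Hdac1, Hdac2, Hdac3, Sirt1, Dnmt1, Dnmt3a, Tet1, Tet2, Kdm6a and Kdm5c the smallest unadjusted limma p over the 6 comparisons was 0.104, for Dnmt3a between 16p11dup-THC (175 ± 155 CPM) and WT-THC (341 ± 74.0 CPM; SD, n = 4 each). With such spreads these data do not show that their levels were alike. Hdac1 averaged 73.0 ± 95.3 CPM in 16p11dup-THC, 102 ± 74.5 CPM in 16p11dup-Veh, 43.9 ± 15.7 CPM in WT-THC and 47.5 ± 24.6 CPM in WT-Veh. Hdac2 averaged 15.6 ± 21.9 CPM in 16p11dup-THC, 59.9 ± 72.2 CPM in 16p11dup-Veh, 31.6 ± 28.2 CPM in WT-THC and 24.3 ± 16.5 CPM in WT-Veh.

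Summed by family, the 9 Setd genes had 1317 ± 385 CPM in 16p11dup-THC, 1505 ± 676 CPM in 16p11dup-Veh and 1240 ± 217 CPM in WT-THC, against 903 ± 295 CPM in WT-Veh, and the groups overlapped. The 5 Kmt genes had 2616 ± 498 CPM in 16p11dup-THC, 2240 ± 488 CPM in 16p11dup-Veh, 2768 ± 607 CPM in WT-THC and 2958 ± 744 CPM in WT-Veh. The Hdac sums were 278 ± 112 CPM in 16p11dup-THC, 258 ± 87.3 CPM in 16p11dup-Veh, 247 ± 149 CPM in WT-THC and 263 ± 103 CPM in WT-Veh. All 57 genes together took up 0.669 ± 0.130% of the CPM in 16p11dup-THC, 0.706 ± 0.135% in 16p11dup-Veh, 0.750 ± 0.0528% in WT-THC and 0.704 ± 0.0988% in WT-Veh.

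Other genes of the same machinery were taken from 8 lists that share no gene with the 57. They hold histone acetyltransferases, other lysine methyltransferases, arginine methyltransferases, other JmjC proteins, subunits of HDAC co-repressor and COMPASS complexes, partners of DNA methylation, and PRC2 subunits. Of 104 such genes with a count, the numbers at an unadjusted p under 0.05 were 1 higher and 1 lower in WT-THC against WT-Veh, 0 and 0 in 16p11dup-Veh against WT-Veh, and 3 and 1 in 16p11dup-THC against WT-Veh. There were 2 higher and 3 lower in 16p11dup-THC against WT-THC, 1 and 3 against 16p11dup-Veh, and 1 and 3 for the interaction. Among the 13962 genes with any count, the matching shares ran from 1.73 to 2.69% for rises and from 1.35 to 3.35% for falls. Whether the lists exceeded these shares was not tested. None of the 104 genes passed an FDR under 0.10 in any of the 6 comparisons. The histone acetyltransferases (13 with a count) and the partners of DNA methylation (14) had no gene at an unadjusted p under 0.05 in any comparison. The list genes named next were picked by their p.

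Jarid2, a JmjC protein without demethylase activity that binds PRC2, had log2 fold changes in 16p11dup-THC of -3.41 against WT-Veh (SE 0.98, limma FDR = 0.803), -3.14 against WT-THC and -3.14 against 16p11dup-Veh, all at an unadjusted p under 0.05. Setdb1, a histone H3 lysine 9 methyltransferase, had 1.80 against WT-Veh (SE 0.58, limma FDR = 0.803). Hif1an, a hydroxylase of HIF-1α, had an interaction of -8.40 (SE 2.40, limma FDR = 0.973). Carm1, an arginine methyltransferase, had -4.64 (SE 2.15), and Rcor1, the CoREST scaffold, 5.84 (SE 2.52).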

How the data were processed

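Sorted mPFC microglia were sequenced in 18 libraries of 4 groups, and 4 libraries left out by the authors are not analysed here. Alignment by the authors used STAR on GRCm38, and RSEM 1.3.0 gave expected counts per gene without regard to strand. Library preparation is named as Nugen Ovation in the methods and Smart-seq2 in the results of the study. The log2 CPM deposited by the authors add 0.5 counts and scale library sizes by 0.735 to 1.305. Expected counts were recovered from them in steps of 0.01, and 94.5% were whole within 0.015. The counts of reads and mapped reads per library, the fraction of mapped reads (72.47 to 81.81%) and the 5 surrogate variable scores were used as deposited.

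All 18 libraries entered one limma 3.58.1 model, with terms for group and for mapped percentage, voom weights and eBayes moderation. All tests are two-sided. The FDR is the Benjamini-Hochberg value, in limma across all 22428 genes and in edgeR and DESeq2 across the genes with any rounded count. Calls are those under 0.10. Counts are read against the 13962 genes with any count. Differences of mean log2 CPM were also tested by exact permutation, unadjusted. Genes named are those at an unadjusted p under 0.05, 15 well-known members, and the highest and lowest of each family. Values per library are given where the mean log2 CPM is at least 4, and for some others chosen after their values were seen. List genes are named from the smallest p of their list. The members and lists were chosen with earlier results of these data known. As alternatives, rounded counts were tested in edgeR 4.0.16 and in DESeq2 1.42.0. DESeq2 ran with its outlier filter, outlier replacement and independent filtering switched off. Limma was refitted with other weights, covariates, filters, scaling and offset, with the compared groups only, and with each library left out. The fits were also run on simulated counts, with the same spread setting for every gene and changes only in genes of higher level. That does not show how they perform at low counts or with the spread seen here. Exon lengths and positions are from GENCODE M21, which matched all 57 genes (Setd8 as Kmt5a), and promoters from RefSeq. Exons of 24 members overlap another gene, among them Kmt2e, Kdm1b, Kdm5a, Setd1a, Sirt2, Sirt3, Sirt7 and Dnmt3a, and their counts are less certain. Intervals and floors cover counting error only. R 4.3.3 and Python 3.11.15 were used.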

Additional observations from a re-analysis of the deposited data

Results flagged for a closer look

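For 36 of the genes with a count that the report names, the highest or lowest library of each group was compared with the rest by Dixon's criterion. Kdm1b, Kdm5a, Kdm8 and Sirt7 were not among them. Of 144 such groups 13 had a library far from the others. The rate of 1 in 20 set for this criterion holds for normally spread values. Several groups lie at the count floor, and many genes were named for their values, so the 13 cannot be set against that rate. No interaction passed the FDR.

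Tet3 in 16p11dup-THC replicate 2 was 7.0 on the log2 CPM scale, against 5.47 to 5.56 in the other 3 libraries. Kmt2c in 16p11dup-Veh replicate 2 was 9.15, against 8.72 to 8.77. Kdm6b in 16p11dup-Veh replicate 3 was 7.58, against 5.09 to 5.41. Kdm3b in WT-Veh replicate 2 was 10.67, against 7.31 to 8.39. The antisense transcript Dnmt3aos in 16p11dup-Veh replicate 2 was 2.95, against -4.66 to -3.86, values of a count of 0.

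Among the deacetylases, Hdac1 in WT-Veh replicate 4 was at a log2 CPM of 2.89, against 5.53 to 6.41 in the other 5 libraries. Hdac6 in 16p11dup-Veh replicate 2 was 0.74, against -4.66 to -3.86, values that stand for a count of 0. Hdac9 in 16p11dup-Veh replicate 1 was -2.53, against 2.88 to 3.70, and in 16p11dup-THC replicate 3 it was 5.72, against 1.68 to 2.22. Sirt1 in 16p11dup-THC replicate 3 was 0.08, against 3.43 to 3.99, and in WT-Veh replicate 5 it was -3.82, a count of 0, against 3.66 to 6.29. Sirt5 in 16p11dup-THC replicate 1 was -2.32, against -4.44 to -4.20, and Sirt6 in WT-THC replicate 4 was 4.61, against -2.33 to -1.90.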

How the results depend on the processing

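No paired analysis was possible because the labels give no replicate numbers shared between groups. Each of the 17 gene and comparison pairs named kept its direction under every alternative run, and with the libraries left out in turn no count at an FDR under 0.10 moved from 0. At an FDR under 0.10, DESeq2 called 1 gene in WT-THC against WT-Veh, 5 in 16p11dup-THC against WT-Veh, 6 against WT-THC, 2 against 16p11dup-Veh and 4 for the interaction, and edgeR called 1 against WT-Veh. Run without its outlier handling, DESeq2 called 3.36 to 7.51% of all genes at that threshold, against 0.0143% or less in limma. The cause was not tested. Setd4, Kdm8 and Dnmt3aos, which had no count in a whole group, were among its calls.

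The number at an unadjusted p under 0.05 moved as follows. With edgeR it was 8 in 16p11dup-THC against WT-Veh, 4 against WT-THC, 5 against 16p11dup-Veh and 1 for the interaction. With DESeq2 it was 5 in WT-THC against WT-Veh, 11 in 16p11dup-THC against WT-Veh, 6 against WT-THC and 5 against 16p11dup-Veh. Over all genes, both tools also gave larger shares at that p than limma in all 6 comparisons. The DESeq2 counts are smaller shares than those of all genes, except in 16p11dup-THC against WT-Veh. The edgeR counts are larger shares against WT-Veh and 16p11dup-Veh, and smaller ones against WT-THC and for the interaction. Whether these shares differ was not tested. In limma without voom weights the number was 5 in WT-THC against WT-Veh. Without the covariate it was 4 in 16p11dup-THC against WT-THC and 2 for the interaction. With 5 surrogate variables it was 2 in 16p11dup-THC against WT-Veh and 2 for the interaction. With only the compared groups it was 4 in 16p11dup-Veh against WT-Veh and 4 in 16p11dup-THC against 16p11dup-Veh. Keeping genes whose mean log2 CPM was 1 or more, it was 1 in 16p11dup-Veh against WT-Veh, 4 in 16p11dup-THC against WT-THC and 2 for the interaction. Without the TMM factor it was 4 in 16p11dup-THC against 16p11dup-Veh. With each library left out it ranged from 2 to 5 in WT-THC and 1 to 4 in 16p11dup-Veh against WT-Veh, 2 to 6, 2 to 4 and 2 to 5 in 16p11dup-THC against WT-Veh, WT-THC and 16p11dup-Veh, and 1 to 5 for the interaction.

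At least 10 counts in every library were found for 28 genes, against 35 with at least 1.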
